A study of Mus musculus with 2 samples.

Results

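Mitotic cells of the Flt3+ HSA+ sort, a fraction of early thymic progenitors, were compared with cells of the same sort that held few transcripts of mitosis. The cells came from the thymus of C57BL/6 mice with the genotype Bcl11b yfp/yfp, a fluorescent reporter at a regulator of T-lineage commitment. The sources used here do not give the number, age or sex of the mice. All cells of this sort were Lin-, 7AAD-, Kit+, CD25- and Bcl11b-, as well as Flt3+ and HSA+, where Flt3 is a cytokine receptor of early progenitors and HSA is the CD24 antigen. Each of the 5 sorts carried its own hashtag, an antibody with a DNA barcode, and all were loaded into 1 cDNA library with a matching hashtag library. The other 4 sorts, used only to repeat the split, were Flt3+ Ly6d- HSA-, Flt3- Ly6d- HSA- and Flt3- Ly6d+ cells with the same shared gates, and a control gated on Lin-, 7AAD- and Kit+ alone. The library held 8293 barcodes, all of them also in the hashtag library, of which 7948 were assigned to a sort and 1182 to Flt3+ HSA+.

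A cell was called mitotic when 10 genes (Mki67, Top2a, Cdk1, Ccnb1, Ccnb2, Ccna2, Ube2c, Birc5, Nusap1 and Cenpf) held at least 0.2% of its unique molecular identifiers (UMIs, counts of captured transcripts), and low-share when they held under 0.05%. Among 1176 Flt3+ HSA+ cells with at least 3000 UMIs, 456 were mitotic, 454 were low-share and 266 lay between, and 6 further cells were too shallow to be used. The groups were chosen by these values, so the levels of the 10 genes are a description: the median share was 0.466% in mitotic cells (quartiles 0.305% and 0.592%, highest 0.967%) and 0.0101% in low-share cells, 132 of which had no UMI of any of them. The thresholds cut a continuum. The 5 mitotic cells nearest the upper threshold had shares of 0.202% to 0.206%, and the 5 cells just outside it 0.197% to 0.199%. The 5 low-share cells nearest the lower threshold had 0.0478% to 0.0495%, and the 5 cells just above it 0.050% to 0.0509%. Within 0.15% to 0.25% lay 147 cells, and within 0.04% to 0.06% lay 41.

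Progenitors that enter the thymus divide while they still carry stem cell regulators, and only later shut these off under Notch signals. In a dividing cell the transcripts of the spindle, of the kinetochores and of cytokinesis build up through G2 and decline after mitosis, whereas transcripts for licensing and starting replication peak between G1 and S. A low share of mitotic transcripts therefore marks resting, G1 and early S phase cells alike, and the comparison sets cells late in the cycle against all of these. The label mitotic likewise does not separate cells in G2 from cells in mitosis, and it does not exclude cells still in S phase.

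All values are from 1 sort in 1 library. Cells of 1 sort are not replicates, so no test was run. The UMIs of each group were added up, 12406070 in mitotic and 6969415 in low-share cells, and levels are given as counts per 1000000 UMIs (CPM). Intervals are 95% intervals from the binomial split of both sums, and cover counting error alone.

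Markers that the split did not use went with the label. Hmmr, which organises spindle microtubules, had 213 CPM in mitotic and 0.574 CPM in low-share cells. Plk1, a kinase that drives entry into and exit from mitosis, had 124 and 1.87 CPM, and Kif11, the motor that separates the spindle poles, 183 and 4.16 CPM. Of 149 measured genes of a wider G2 and mitosis list, 139 were at least 1.5-fold higher in mitotic cells and none were at least 1.5-fold lower. Over all 9224 genes measured, those with at least 5 CPM in either group, 6.83% were that much higher and 8.09% that much lower. Histone genes expressed with replication were higher in 36 of 38 cases, and Hist1h2bc was lower, at 25.9 CPM in mitotic and 51.8 CPM in low-share cells. Since the same cells and, apart from the histone genes, the same kind of genes chose the groups, these counts describe the split and support nothing beyond it.

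Genes of S phase and replication were mixed. Of 94 measured, 30 were at least 1.5-fold higher and 9 lower in mitotic cells, with a median of 0.20 (log2), and 12 were higher and 27 lower, with a median of -0.26, when low-share cells were weighted to the depth of mitotic cells. The 9 lower genes were Ung, E2f1, Ccne1, Donson, Mcm2, Mcm3, Mcm4, Mcm5 and Mcm6. Ung, which removes uracil from DNA and is transcribed before replication, had 5.0 CPM in mitotic and 117 CPM in low-share cells. E2f1, which switches on replication genes, had 13.9 and 35.0 CPM, and the helicase gene Mcm2 had 65.5 and 154 CPM. E2f8, a repressor of E2F targets, was among the higher genes, at 23.9 CPM in mitotic and 1.0 CPM in low-share cells, as was Cdc45, a part of the replicative helicase, at 42.3 and 21.1 CPM. Rrm2 and Tyms, which supply deoxynucleotides during S phase, had 93.5 and 186 CPM in mitotic cells, against 24.4 and 64.9 CPM in low-share cells. Across 5 bands of the mitotic share (under 0.05%, 0.05 to 0.1%, 0.1 to 0.2%, 0.2 to 0.4% and at least 0.4%), Ung stood at 117, 191, 113, 11 and 0.946 CPM. Rrm2 stood at 24.4, 205, 254, 175 and 38.1 CPM, so its level peaked in the middle bands. The band of 0.2 to 0.4%, where Rrm2 was still at 175 CPM, held 185 of the cells called mitotic. The median share of S phase genes was 0.689% in mitotic, 1.29% in intermediate and 0.636% in low-share cells. That of histone genes expressed with replication was 0.331%, 0.187% and 0.0382%.

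Mitotic cells held more RNA. The median was 26216 UMIs and 4938 genes in a mitotic cell, and 14700 UMIs and 3669 genes in a low-share cell, ratios of 1.78 and 1.35. The hashtag, which marks the cell surface, had a median of 299.5 counts in mitotic and 221 counts in low-share cells, a ratio of 1.36. A CPM ratio below 1 therefore need not mean fewer transcripts per cell. On the scale of UMIs per cell every CPM ratio moves up by 0.83 (log2). Doublets with 1 hashtag were not called, and their part in the high UMI counts was not tested. The share of mitochondrial UMIs was 4.02% in mitotic and 4.53% in low-share cells (medians).

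**Figure D1:**
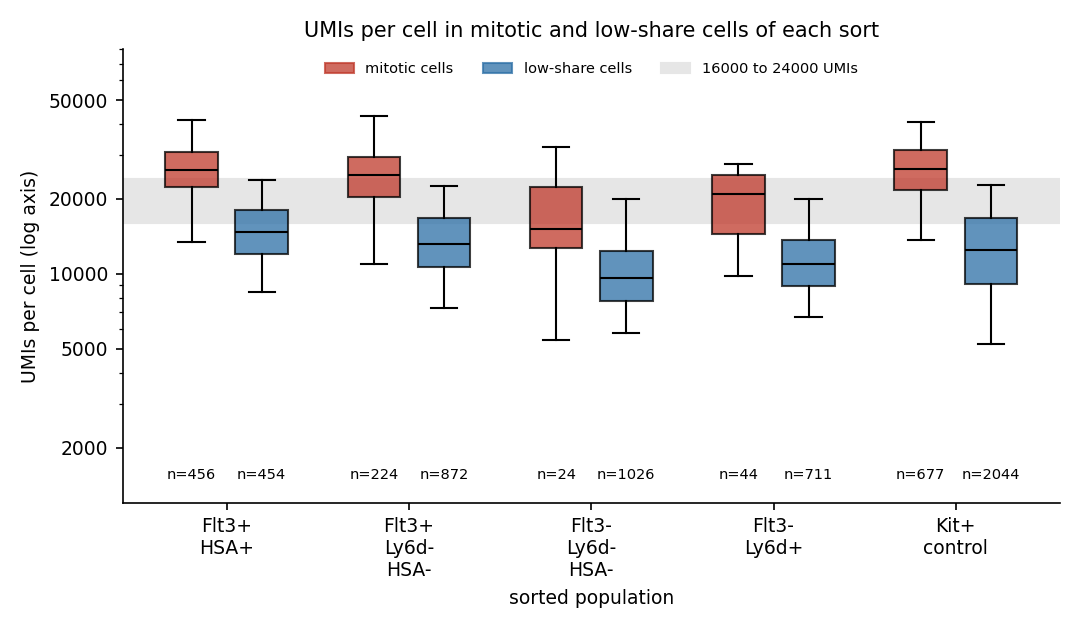
UMIs per cell on a log axis for mitotic (red, left of each pair) and low-share cells (blue, right) of the 5 sorts, as medians with quartiles and whiskers at the 5th and 95th percentiles. In every sort the mitotic median is above the low-share median, with 26216 and 14700 UMIs in Flt3+ HSA+, and the grey band marks the 16000 to 24000 UMIs in which cells of like size were compared.

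Because RNA content moved with the split, the comparison was repeated within 16000 to 24000 UMIs per cell, a window chosen after seeing the data. It held 127 mitotic cells with a median of 21647 UMIs and 152 low-share cells with a median of 18651 UMIs, so the mitotic cells in it were smaller than most mitotic cells and the low-share cells larger than most low-share cells. The median share of the 10 rule genes was 0.466% and 0.0154% there, and that of S phase genes 0.736% and 0.808%. Cells in this window are called cells of like size.

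Of 13 measured D cyclins, their kinases and CDK inhibitors, 2 were higher (Cdkn2c and Cdkn2d) and 2 lower (Ccnd1 and Rb1) in mitotic cells, with a median of 0.01 (log2), and the other 9 were within 1.5-fold. Over all genes measured, 6.83% were higher and 8.09% lower. At like size 4 of these cyclin, kinase and inhibitor genes were higher and 3 lower, with a median of 0.26. There 1070 of all 9201 genes measured were higher and 747 lower. Ccnd1, the D cyclin that carries growth signals to the cell cycle, had 19.1 CPM in mitotic and 47.1 CPM in low-share cells, a 2.46-fold difference (2.08 to 2.92), and 9.67 and 53.8 CPM at like size, 5.57-fold (3.66 to 8.79). The CDK4 and CDK6 inhibitors Cdkn2c and Cdkn2d had 21.4 and 41.8 CPM in mitotic cells, against 3.01 and 16.6 CPM in low-share cells. At like size Cdkn2c had 35.0 CPM in mitotic and 2.78 CPM in low-share cells. Outside that list Ccng2, a cyclin usually linked with cell cycle arrest, was higher, with 41.3 CPM in mitotic and 16.9 CPM in low-share cells, and 53.9 and 10.4 CPM at like size. Ccng2 reached 53.4 CPM in the highest band, while the 4 bands below it stood at 16.9, 9.34, 18.3 and 23.4 CPM.

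Genes were counted by a size rule: a ratio of at least 1.5, with at least 20 CPM in the higher group, a UMI in at least 5% of its cells after thinning each cell to 3000 UMIs, and less than 50% of the gene's UMIs in its top 10 cells. Of all 5701 genes that could be counted, 377 (6.61%) were higher and 206 (3.61%) lower in mitotic cells. Of the 5360 of these that belonged to no cell cycle list or symbol family, 182 (3.40%) were higher and 197 (3.68%) lower in mitotic cells. Outside the cycle means outside those lists and families only, and some such genes have known roles in division. Every ratio moves up by 0.83 (log2) on the scale of UMIs per cell. All 182 higher genes therefore passed 1.5-fold there by construction, with a median ratio of 3.05. Of the 197 lower genes, only 72 had fewer UMIs per cell at all, 11 of them at least 1.5-fold fewer, and their median ratio per cell was 1.05. The median lower gene thus had about as many UMIs in a mitotic as in a low-share cell. Within the window of like size, 180 of the 182 higher and 180 of the 197 lower genes kept their direction, and 135 and 89 kept the 1.5-fold difference. The cells in the window are part of those that chose these genes, so agreement in direction was partly built in. Among all genes measured outside the cycle, 9.35% were at least 1.5-fold higher and 8.28% at least 1.5-fold lower in the window. Across the sort these shares were 4.39% and 8.34%, so counts of list members higher at like size have the larger background.

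The 15 largest higher ratios outside the cell cycle lists belonged to genes that the lists do not hold, several of them with known roles in division. Their place outside the lists is therefore no sign of a role outside division. Ankle1 (chr8:71406010-71409904, mm10, GENCODE M21), a LEM-domain nuclease, had 25.1 CPM in mitotic cells and 0.143 CPM in low-share cells, where a lone UMI was counted, a ratio of 175 (31.1 to 6923). Arhgap19 (chr19:41766588-41802047), a RhoA inhibitor needed for cytokinesis of human T cells, had 30.1 and 0.287 CPM, the second from 2 UMIs, a ratio of 105 (28.8 to 868). Spdl1, which brings dynein to kinetochores, had 48.6 CPM in mitotic and 4.45 CPM in low-share cells. Eme1, a subunit of the Mus81 DNA repair nuclease, had 29.3 and 2.58 CPM. Diaph3, a formin that builds actin filaments in cytokinesis, had 47.1 and 8.18 CPM, and Gsg2, the haspin kinase of histone H3, 26.1 and 5.88 CPM. The others of the 15 were Prr11, Arhgef39, Poc1a, Rnf26, Traip, Mns1, Aunip, Mnd1 and Mtfr2, from 54.1-fold for Prr11 (3 UMIs in low-share cells) to 3.43-fold for Mtfr2. Rnf26, a ubiquitin ligase of the endoplasmic reticulum, had 72.1 CPM in mitotic and 16.2 CPM in low-share cells, and Mns1 66.0 and 17.9 CPM. All 15 kept a 1.5-fold difference in each of 6 alternative comparisons, which draw largely on the same cells that chose the genes.

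The cell cycle transcripts of late G2 are classically driven through a promoter element read TTTGAA (the cell cycle homology region) and nearby CCAAT boxes. The promoters of genes on either side of the split were therefore searched for these letters on both strands, in RefSeq windows of 250 bases before to 50 after each start (build GRCm38.p6). Of all 27025 genes in that table, 20.2% held TTTGAA, 41.1% held CCAAT and 7.97% both. Among the 115 of 152 wider G2 and mitosis genes with a promoter, 56.5%, 67.8% and 44.3% held them. Among 145 matched genes of the 182 higher ones outside the cycle lists, the shares were 29.7%, 53.8% and 16.6%, and among 146 matched of the 197 lower ones 10.3%, 43.2% and 2.74%. Among the 7176 matched genes of all those measured they were 14.4%, 43.4% and 5.88%. A match is a description of the letters and not a binding site. The 250 bases before the start are shown for a pair of rule genes, Ccnb2 and Cdk1, and for 3 higher genes outside the lists, 5′ to 3′ on the gene's strand, with each match of either motif in capitals (CCAAT reads ATTGG and TTTGAA reads TTCAAA where the match is on the other strand). These genes are picked examples that all hold TTTGAA, unlike most of the matched higher genes outside the lists, and the stretch of Ankle1 holds no CCAAT. Ccnb2 lies at chr9:70421555-70421804 (minus strand), Cdk1 at chr10:69352913-69353162 (minus), Arhgap19 at chr19:41802085-41802334 (minus), Ankle1 at chr8:71405762-71406011 (plus) and Nucks1 at chr1:131910208-131910457 (plus).
Ccnb2: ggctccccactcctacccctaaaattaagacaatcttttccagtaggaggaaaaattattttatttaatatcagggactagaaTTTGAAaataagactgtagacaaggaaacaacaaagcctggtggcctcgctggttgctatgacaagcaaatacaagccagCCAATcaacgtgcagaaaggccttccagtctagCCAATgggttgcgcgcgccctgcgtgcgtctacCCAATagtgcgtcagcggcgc
Cdk1: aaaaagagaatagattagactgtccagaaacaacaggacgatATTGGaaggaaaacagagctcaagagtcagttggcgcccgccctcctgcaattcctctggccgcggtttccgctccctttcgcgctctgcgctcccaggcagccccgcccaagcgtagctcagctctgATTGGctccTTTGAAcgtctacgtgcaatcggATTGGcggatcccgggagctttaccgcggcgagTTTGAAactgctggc
Arhgap19: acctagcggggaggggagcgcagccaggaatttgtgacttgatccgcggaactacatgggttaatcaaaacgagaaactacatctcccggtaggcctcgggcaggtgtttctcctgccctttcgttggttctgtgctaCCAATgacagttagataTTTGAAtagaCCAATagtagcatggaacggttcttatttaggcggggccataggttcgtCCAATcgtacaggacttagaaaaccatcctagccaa
Ankle1: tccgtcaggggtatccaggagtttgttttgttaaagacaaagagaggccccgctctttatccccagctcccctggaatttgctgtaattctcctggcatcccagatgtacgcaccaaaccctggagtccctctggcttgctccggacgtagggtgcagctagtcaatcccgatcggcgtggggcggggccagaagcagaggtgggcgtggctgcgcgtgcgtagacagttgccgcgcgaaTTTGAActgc
Nucks1: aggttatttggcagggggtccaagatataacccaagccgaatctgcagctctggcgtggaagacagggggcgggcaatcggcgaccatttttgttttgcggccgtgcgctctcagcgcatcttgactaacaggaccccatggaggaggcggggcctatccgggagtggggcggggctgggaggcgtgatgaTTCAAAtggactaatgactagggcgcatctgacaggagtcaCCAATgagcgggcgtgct
In Cdk1 a TTTGAA starts 71 bases before the start and another 15 bases before it, with CCAAT boxes on the other strand between and beyond them. In Arhgap19 the TTTGAA starts 95 bases before the start, between CCAAT boxes that begin 112 and 85 bases before it.

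Several chromatin proteins were higher in mitotic cells, across the sort and at like size. Of 63 measured chromatin regulators, 12 were at least 1.5-fold higher and 2 lower in mitotic cells, with a median ratio of 0.15 (log2), against 4.39% higher, 8.34% lower and a median of -0.02 over the 8775 genes measured outside the cycle. Nucks1, a chromatin protein of DNA repair that is a CDK substrate, had 629 CPM in mitotic and 198 CPM in low-share cells, 3.18-fold (3.0 to 3.37). Its level went up at every step of the bands, at 198, 290, 383, 518 and 705 CPM, as did that of 43 of the 182 higher genes outside the cycle. Hmgn2 and Hmgb1, which bind nucleosomes and bend DNA, had 604 and 2468 CPM in mitotic cells, against 274 and 1218 CPM in low-share cells. Both are known for many near-identical processed copies in the genome, and the sources used here do not say how shared reads were counted. Ezh2, the methyltransferase of Polycomb repression, had 242 CPM in mitotic and 135 CPM in low-share cells. Suv39h1, which methylates heterochromatin, had 44.3 and 20.2 CPM, and the insulator protein gene Ctcf had 252 and 150 CPM. The exceptions were Kdm5b, a histone H3K4 demethylase, at 48.0 CPM in mitotic and 85.4 CPM in low-share cells, and the DNA methyltransferase gene Dnmt3a, at 28.1 and 47.4 CPM. At like size, 14 chromatin genes were higher and none were lower, and the median was 0.17. Nucks1 there had 666 CPM in mitotic and 224 CPM in low-share cells, and Kdm5b 58.0 and 64.6 CPM.

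Some genes of the nuclear envelope and its transport were higher too. Of 33 nuclear pore and import genes, 10 were higher and none lower, with a median of 0.34 (log2). Nup35 and Nup37, pore subunits, had 29.0 and 72.4 CPM in mitotic cells, against 11.8 and 31.6 CPM in low-share cells. Lbr, the lamin B receptor of the inner nuclear membrane, had 102 CPM in mitotic and 63.3 CPM in low-share cells. Ran, the GTPase of nuclear transport and of spindle assembly, was just under the 1.5-fold line, at 1445 and 973 CPM. At like size the median was 0.15 with 4 of 33 higher and none lower, a share near the 9.35% of all genes outside the cycle that were higher there, and Ran had 1257 CPM in mitotic and 1147 CPM in low-share cells. Of 44 splicing and mRNA export factors, 3 were higher (Ddx39, Alyref and Hnrnpa2b1) and none lower, with a median of 0.25. The splicing median was 0.14 at like size, where none passed 1.5-fold in either direction.

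Genes of growth and metabolism differed by less, and several medians turned with cell size. Of 81 cytosolic ribosomal protein genes, 79 had a lower CPM in mitotic cells, though none by 1.5-fold, with a median of -0.18 (log2). Their summed level was 307870 CPM in mitotic and 348100 CPM in low-share cells, and the median at like size was -0.20. Nuclear genes of oxidative phosphorylation had a median of 0.16, with 71 of 76 above 0, and proteasome subunits a median of 0.16, with 36 of 41 above 0. Mitochondrial ribosomal proteins had a median of 0.20 with 1 of 76 past 1.5-fold. At like size these 3 medians were -0.07, -0.05 and -0.02. Genes for tRNA charging and amino acid supply had a median of 0.20, with 4 of 33 higher, against 4.39% of all genes outside the cycle. Among the 4 were Cars, Psat1 and Mthfd2, and the list median was 0.00 at like size. Growth and nucleolar genes linked with Myc had a median of 0.08 with none of 37 past 1.5-fold. At like size 5 were lower, against 8.28% of all genes outside the cycle, and none higher, and the median was -0.36. Npm1, the abundant nucleolar histone chaperone, shows the shift, with 2883 CPM in mitotic and 2852 CPM in low-share cells across the sort, and 2449 and 3137 CPM at like size.

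Aldolase and several genes of lipid synthesis were lower in mitotic cells. Aldoa, the aldolase of glycolysis, had 202 CPM in mitotic and 356 CPM in low-share cells, 1.76-fold lower (1.66 to 1.86), and was 2.79-fold lower at like size (2.46 to 3.17). Ldha, lactate dehydrogenase, was at 410 CPM in mitotic and 424 CPM in low-share cells across the sort, and at 297 and 486 CPM at like size. The glycolysis list as a whole had 1 higher and 2 lower of 21, with a median of -0.04, and 2 higher and 5 lower with a median of -0.33 at like size. Over all genes outside the cycle 4.39% were higher and 8.34% lower across the sort, and 9.35% and 8.28% at like size. The glycolysis counts across the sort were near these shares. Of 26 cholesterol and fatty acid synthesis genes, 4 were lower and none higher, with a median of -0.30. Msmo1 and Sqle, enzymes of sterol synthesis, had 19.2 and 19.1 CPM in mitotic cells, against 33.4 and 29.3 CPM in low-share cells. Fasn, fatty acid synthase, had 24.0 CPM in mitotic and 36.4 CPM in low-share cells. At like size 10 of the 26 were lower and none higher, with a median of -0.48, and Sqle had 14.1 CPM in mitotic and 35.1 CPM in low-share cells. Per cell, Msmo1, Sqle and Fasn had 1.02, 1.16 and 1.17 times the UMIs of a low-share cell.

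**Figure D2:**
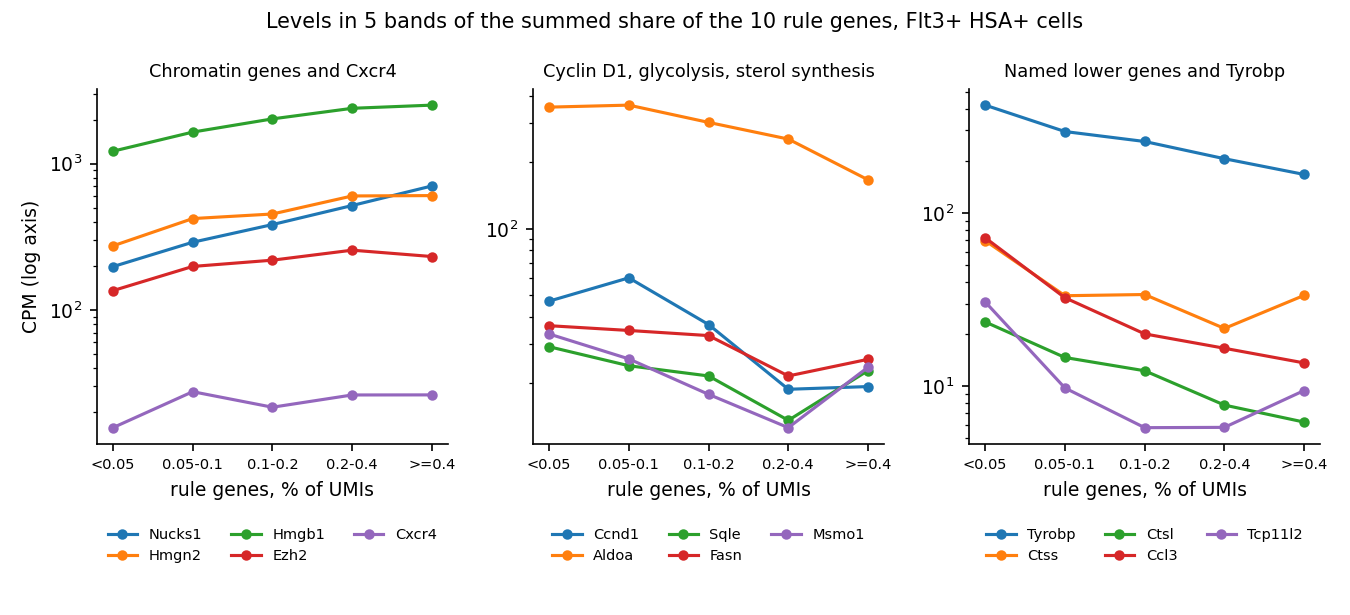
Level (CPM, log axis) of 15 genes in 5 bands of the share of UMIs held by the 10 rule genes, from low to high share, in Flt3+ HSA+ cells. Nucks1 climbs in every band while Aldoa, Tyrobp and Ctsl are lowest in the highest band, and Sqle, Fasn and Msmo1 are lowest in the band of 0.2 to 0.4%.

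Among the lower genes were secreted and surface proteins of immune cells. Ccl3 (chr11:83647844-83649355) and its neighbour Ccl4 (chr11:83662584-83664683), inflammatory chemokines, had 14.8 and 39.1 CPM in mitotic cells, against 72.0 and 158 CPM in low-share cells. Their ratios were 4.86 (4.09 to 5.78) and 4.03 (3.62 to 4.5) in favour of low-share cells. At like size Ccl3 had 30.9 CPM in mitotic and 35.4 CPM in low-share cells, 1.15-fold lower (0.851 to 1.55), and Ccl4 had 81.4 and 92.7 CPM, 1.14-fold lower (0.949 to 1.37). Among cells of like size in the Flt3+ Ly6d- HSA- and control sorts, the log2 ratios of Ccl3 were -1.78 and -1.23 and those of Ccl4 -0.52 and -0.04. Cd7, an immunoglobulin family receptor of early T and NK cells, had 32.1 CPM in mitotic and 95.8 CPM in low-share cells, and 45.4 and 64.6 CPM at like size. Ltb, lymphotoxin beta, had 72.1 and 171 CPM, and 95.9 and 122 CPM at like size.

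Of the 15 lower genes named by the rule, those outside this group mostly kept a 1.5-fold difference at like size. The 15 were picked for the largest ratios among the 197 lower genes, and the window reuses the same cells. A contrast with the 89 of 197 that kept 1.5-fold is therefore partly fixed by that choice. Ctsl and Ctss, lysosomal proteases, had 6.85 and 28.7 CPM in mitotic cells, against 23.5 and 69.3 CPM in low-share cells. At like size they were 2.58-fold (1.46 to 4.80) and 1.99-fold lower (1.51 to 2.62). Rab4a, a GTPase of endosome recycling, had 9.59 CPM in mitotic and 26.1 CPM in low-share cells, and was 3.23-fold lower at like size (2.07 to 5.21). Tcp11l2 had 7.98 and 30.7 CPM, and was 5.86-fold lower at like size (3.08 to 12.3). Bcl2l14, a relative of Bcl2, had 8.38 and 22.4 CPM. The synaptotagmin-like vesicle gene Sytl1 had 18.4 CPM in mitotic and 46.3 CPM in low-share cells. Il17re, Evi2a, Neurl3 and Eva1b were the remaining genes named by the rule, lower by 2.76-, 2.74-, 2.66- and 2.43-fold, of which Neurl3 was 1.44-fold lower at like size (0.925 to 2.27). Ccr9, a receptor for the thymic chemokine Ccl25, had 7.90 and 26.5 CPM and was 2.26-fold lower at like size (1.47 to 3.55). Its direction turned in the Flt3- Ly6d+ sort (0.99, log2), at low levels of 5.68 CPM in only 44 mitotic cells and 2.87 CPM in low-share cells. The direction of Ccr9 also turned when low-share cells were weighted to the depth of mitotic cells. Cd69, an activation marker, had 98.4 CPM in mitotic and 157 CPM in low-share cells. Tyrobp, the DAP12 adaptor of NK and myeloid receptors, had 183 and 420 CPM, and its level went down at every step of the bands, at 420, 296, 259, 206 and 167 CPM. Only 17 of the 197 lower genes outside the cycle did so at all 4 steps. Of the 15 named lower genes, 10 kept a 1.5-fold difference in each of the 6 alternatives (all but Ccl3, Ccl4, Cd7, Neurl3 and Ltb). Over all genes called outside the cycle, 91 of the 182 higher and 62 of the 197 lower ones did.

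**Figure D3:**
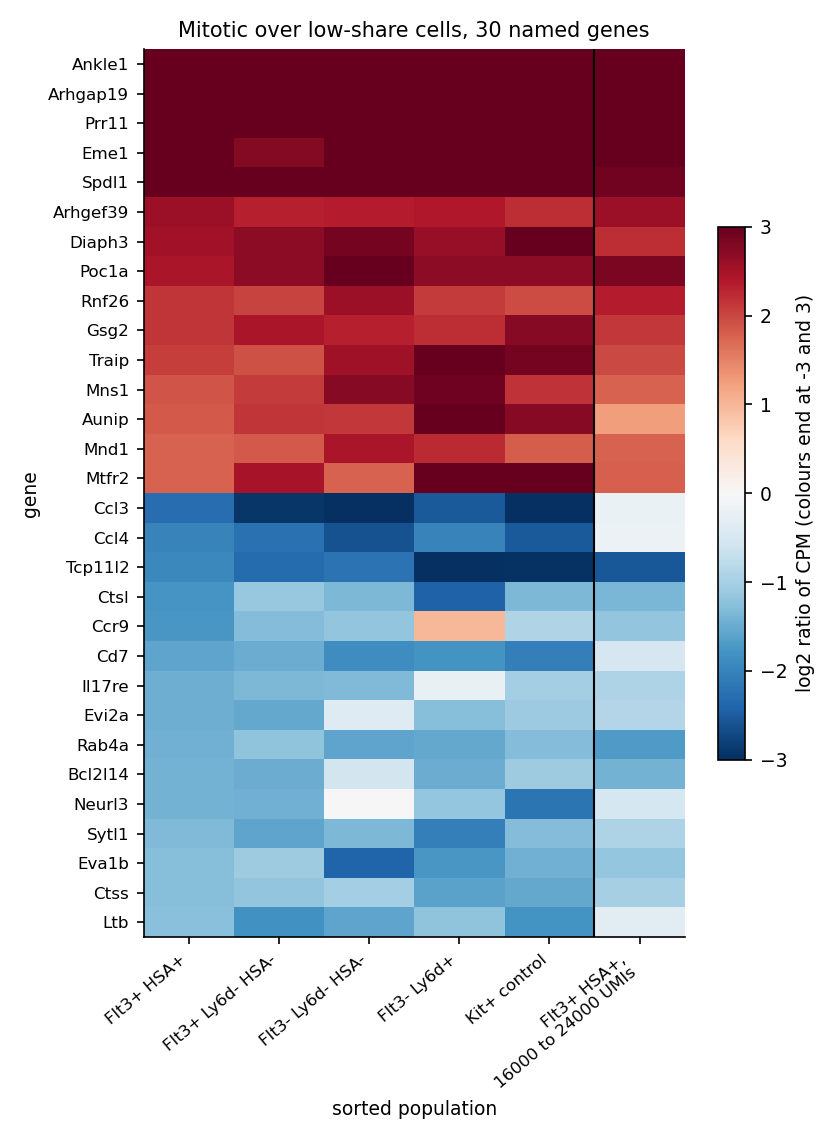
Log2 ratio of CPM, mitotic over low-share cells, of the 15 higher (upper rows) and 15 lower genes (lower rows) named by the rule, in the 5 sorts and, right of the line, in Flt3+ HSA+ cells with 16000 to 24000 UMIs. Red means higher and blue lower in mitotic cells, and Ccl3, Ccl4, Cd7 and Ltb are pale in the last column while Tcp11l2, Rab4a and Ctsl are not.

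Immediate early and interferon genes were lower in mitotic cells of the full comparison, but the immediate early median was above 0 and the interferon median nearer 0 among cells of like size. Of 21 immediate early genes, which any brief stimulus or cell handling can switch on, 9 were lower and none higher, with a median of -0.52 (log2). Over all genes measured outside the cycle, 8.34% were lower and 4.39% higher. Junb, an AP-1 factor, had 78.9 CPM in mitotic and 183 CPM in low-share cells, and Dusp2, a phosphatase of MAP kinases, had 307 and 538 CPM. Jun had 361 and 542 CPM. At like size the list had 4 higher and none lower, against 9.35% and 8.28% of all genes outside the cycle, with a median of 0.20. Jun there had 470 CPM in mitotic and 439 CPM in low-share cells. Dusp2 then had 428 and 431 CPM, and Junb 94.8 and 140 CPM. Of 29 interferon response genes, 12 were lower and none higher, with a median of -0.48, among them Isg20 (16.5 CPM in mitotic and 33.6 CPM in low-share cells) and Oasl2 (15 and 28.7 CPM). At like size 3 were lower, a share near the 8.28% of all genes outside the cycle, and 1 was higher, with a median of -0.22. With low-share cells weighted to the depth of mitotic cells the interferon median was 0.45. Isg20 at like size had 15.2 CPM in mitotic and 32.6 CPM in low-share cells. The quiescence-linked list had a median of -0.21 across the sort, with the antiproliferative genes Btg1 and Btg2 lower, and of 0.21 at like size. Btg1 had 78.9 CPM in mitotic and 152 CPM in low-share cells across the sort, and 104 and 111 CPM at like size.

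Low-share cells rich in S phase transcripts were closer to mitotic cells in these lists. The 454 low-share cells were split at their median share of S phase genes, 0.636%, into 227 above it (median 17404 UMIs) and 227 at or below it (median 12606 UMIs). Against the cells above it, the medians of mitotic cells were -0.32 for immediate early and -0.38 for interferon genes. Against the cells at or below it, the medians were -0.72 and -0.84. The nuclear pore list had medians of 0.17 and 0.74 in these comparisons, and the Myc-linked list of -0.12 and 0.35.

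The median of antigen presentation genes of class I was also higher at like size. The 15 genes had a median of -0.12 across the sort, with 1 higher and 1 lower, and at like size a median of 0.39 with 5 higher and none lower. Over all genes outside the cycle, 9.35% were higher and 8.28% lower at like size. H2-K1, a classical class I heavy chain, had 812 CPM in mitotic and 612 CPM in low-share cells across the sort, and 889 and 546 CPM at like size, 1.63-fold (1.53 to 1.74). Class I genes are a family of close relatives, so reads may be split between members. Cxcr4, the receptor for Cxcl12 in the thymic cortex, was higher in both comparisons, at 26.2 CPM in mitotic and 15.6 CPM in low-share cells, and at 32.4 and 16.0 CPM at like size.

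**Figure D4:**
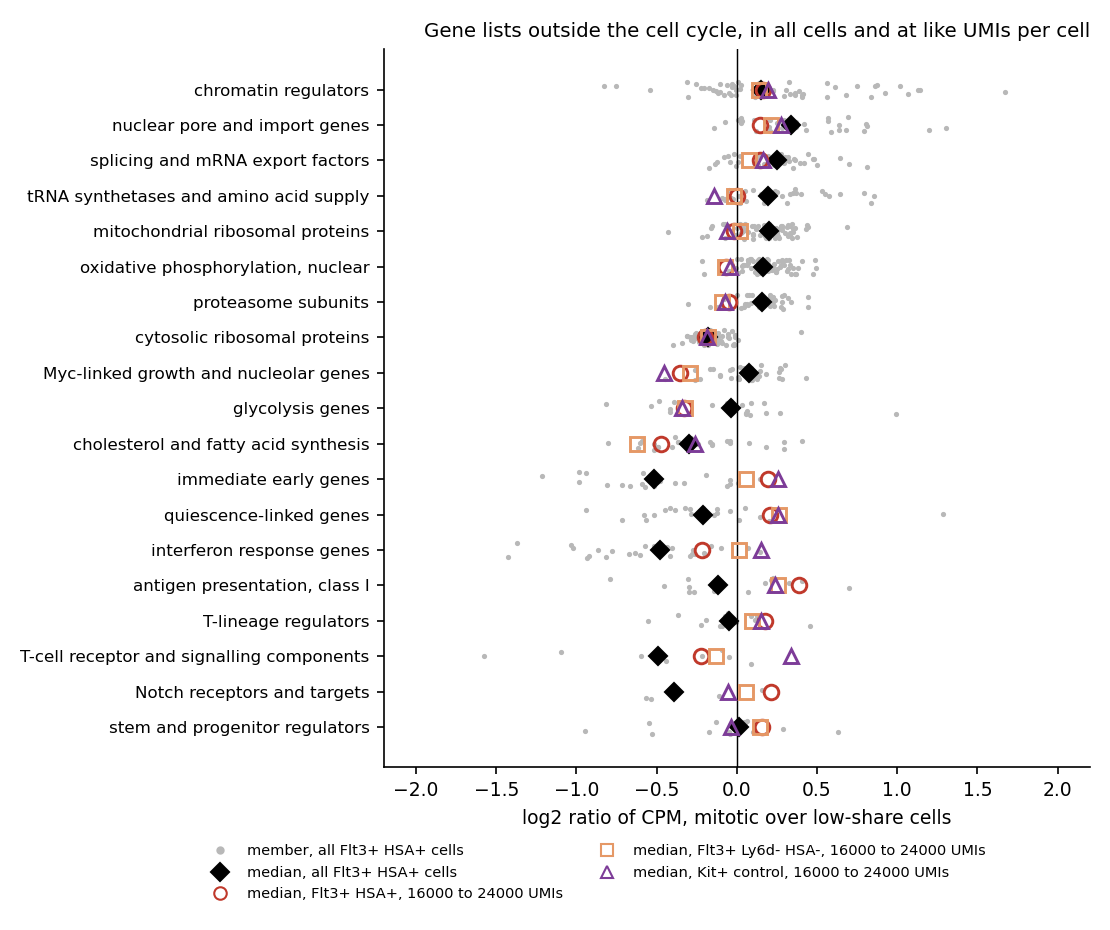
Log2 ratio of CPM, mitotic over low-share cells, for 19 gene lists. Grey dots are members and black diamonds medians over all Flt3+ HSA+ cells, and open symbols are medians in cells with 16000 to 24000 UMIs in 3 sorts. The chromatin, nuclear pore and cytosolic ribosomal protein medians hold their side of 0, while the immediate early median is at -0.52 in all cells and 0.20 at like size.

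Genes of the progenitor programme mostly lay within 1.5-fold of each other. Kit, the receptor used in the gate, had 67.0 CPM in mitotic and 78.6 CPM in low-share cells, and Flt3 58.1 and 78.1 CPM. The hyaluronan receptor gene Cd44 had 104 and 101 CPM, and the stem cell regulators Lmo2 and Lyl1 had 98.7 and 133 CPM in mitotic cells, against 95.4 and 127 CPM in low-share cells. Of 19 stem and progenitor regulators 1 was higher and 1 lower (Gfi1b and Tal1), with a median of 0.01, and of 17 T-lineage regulators none passed 1.5-fold in either direction, with a median of -0.05. At like size 3 of the 17 T-lineage regulators were higher and 1 lower, with a median of 0.18. Over all genes outside the cycle 9.35% were higher and 8.28% lower there. Among cells of like size 1 was higher and 3 lower in Flt3+ Ly6d- HSA-, and 1 higher and none lower in the control. Notch1 had 107 CPM in mitotic and 141 CPM in low-share cells, its target Hes1 had 87.8 and 130 CPM, and Tcf7, a T-cell factor induced by Notch, had 37.9 and 55.7 CPM. At like size the order of Hes1 and Tcf7 turned, with 113 and 48.3 CPM in mitotic cells, against 96.9 and 40.3 CPM in low-share cells. Of 11 T-cell receptor and signalling components, 3 were lower and none higher (Cd7, Cd247 and Rag2), with a median of -0.49, and 2 at like size, with a median of -0.22. Across the sort 8.34% of all genes outside the cycle were lower and 4.39% higher. Dntt, the polymerase that adds bases at receptor gene joints, had 789 CPM in mitotic and 1111 CPM in low-share cells. The gene for HSA itself, Cd24a, had 128 and 173 CPM.

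The same split in the other 4 sorts, whose cells had no part in choosing the genes, gave 224 mitotic and 872 low-share cells in Flt3+ Ly6d- HSA-, 24 and 1026 in Flt3- Ly6d- HSA-, 44 and 711 in Flt3- Ly6d+, and 677 and 2044 in the control. Mitotic cells made up 38.8% of the Flt3+ HSA+ sort (exact binomial interval 36.0 to 41.6), against 15.9%, 2.07%, 5.33% and 20.8% of the others. These are shares of cells past the threshold of the rule, and not of cells seen in mitosis. All 182 higher genes were higher in mitotic cells of Flt3+ Ly6d- HSA-, 168 in Flt3- Ly6d- HSA-, 177 in Flt3- Ly6d+ and 180 in the control, and 162 in all 4. Of the 197 lower genes, 197, 172, 185 and 195 were lower there, and 163 in all 4. The sorts share 1 library and the same size difference, with mitotic cells holding 1.57 to 2.12 times the UMIs of low-share cells in them, so they are not replicates. In the window of like size, which held 50 or more cells of each group in 2 of these sorts, the lower genes kept their direction in 165 of 197 in Flt3+ Ly6d- HSA- and 171 of 197 in the control. Of the 28 lists outside the cycle, 19 had medians of 1 sign in all 3 sorts there, whatever their size. Only 11 of the 28 also had that sign over all Flt3+ HSA+ cells. The others of the 19 had the opposite sign in the window. The immediate early medians were 0.06 in Flt3+ Ly6d- HSA- and 0.26 in the control, the Myc-linked medians -0.29 and -0.45, the glycolysis medians -0.32 and -0.34, the cholesterol medians -0.63 and -0.26, and the class I medians 0.26 and 0.24. The interferon medians were 0.02 and 0.15, on the other side of 0 from Flt3+ HSA+, and the T-cell receptor and signalling medians were -0.13 and 0.34, of which the control was on the other side.

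Markers of other cell types moved with the split, some through a few cells and some in the median cell. A granulocyte class, cells with a UMI of at least 7 of 14 granulocyte genes, held 11 mitotic cells (2.41%, exact binomial interval 1.21 to 4.28) and 2 low-share cells (0.441%, 0.0534 to 1.58). Of 14 measured granulocyte markers 13 were higher in mitotic cells, with a median of 1.85 (log2). Without that class the median was -0.49, over the 5 markers still measured. The class is defined by such markers, so lower levels without it were built in. None of the markers passed the size rule. The summed level of the 19 markers was 3207 CPM in mitotic and 1088 CPM in low-share cells, and in the median cell 390 and 399 CPM. Of 10 measured dendritic cell markers 1 was higher and 5 lower, with a median of -0.53, among them the class II gene Cd74 at 18 CPM in mitotic and 101 CPM in low-share cells. Their summed level in the median cell was 760 CPM in mitotic and 831 CPM in low-share cells, and in a single low-share cell it reached 31056 CPM. At like size 4 dendritic markers were higher and 1 lower, with a median of 0.31, and Cd74 had 5.21 and 4.17 CPM. For NK and innate lymphoid genes the summed level was 678 CPM in mitotic and 969 CPM in low-share cells, with 11 of 15 detected in each group. In the median cell it was 575 CPM in mitotic and 911 CPM in low-share cells, and 33.3% of mitotic and 56.8% of low-share cells held at least 2 of these markers after thinning to 3000 UMIs. Of the 5 measured NK and innate lymphoid genes, Klrd1 and Tyrobp were lower, and the median at like size was -0.14. Tyrobp, an adaptor of myeloid receptors too, held 183 of the 678 CPM in mitotic and 420 of the 969 CPM in low-share cells. The lower sum is thus in large part that of 1 gene. The defining NK genes Ncr1, Eomes and Tbx21 were at 0 in both groups, as were the B-cell genes Ms4a1 and Pax5 and the later thymocyte genes Cd8a and Cd8b1. Summed macrophage markers were at 20.9 CPM in mitotic and 32.1 CPM in low-share cells. Leaving out the granulocyte class gave 180 higher and 197 lower genes outside the cycle, of which 170 and 173 were among those already counted. The part of the remaining markers in the lower chemokine and cathepsin levels was not tested.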

How the data were processed

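Single cells were sequenced with 10x Chromium v3 chemistry, per the labels' protocols, in 1 cDNA library and 1 hashtag library of the same 8293 barcodes. The submitters' processing notes name Cell Ranger 3.0 and mm10. The deposited matrix holds counts, as whole UMI counts for 27998 genes, and the authors' table assigns barcodes to sorts, by a rule not given in the sources used here; 345 unassigned barcodes were left out. The deposited hashtag counts were used for the count of the sort's own hashtag per cell and for that hashtag's share of the 5 hashtags. A hashtag purity of 80% was 1 of the alternatives.

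The members and gene lists were chosen with earlier results of these data known. UMIs were summed per group and scaled to CPM with Python 3.11.15, NumPy 2.4.6, SciPy 1.17.1 and pandas 2.3.3, and figures drawn with Matplotlib 3.10.9. With 1 sort per group there was no test. Ratio intervals come from the binomial split of the counts, at 95%, and a gene at 0 in 1 group was set to 3 counts. Intervals cover counting error only. Thinning drew 3000 UMIs per cell. Cell cycle genes were 5 lists plus symbol families such as Kif, Cenp and Mcm. The script was tested on simulated counts. Doublets were not called and no clustering was done.

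Named genes were the 15 largest ratios in each direction among genes past the size rule outside the cycle, without predicted genes, ribosomal protein genes and clone names, and any member of the 43 lists. The 6 alternatives used to ask which called genes keep 1.5-fold were cells with 16000 to 24000 UMIs, no granulocyte class, equal weight per cell, low-share cells above and at or below the S phase median, and a split by 10 other mitotic genes; these 6 were put together after seeing the data. The depth weights were not among the 6. Alternative scalings used edgeR 4.0.16 TMM factors and DESeq2 1.42.0 size factors (R 4.3.3). Coordinates are from GENCODE M21 and promoters from RefSeq. Median levels of all genes outside the cycle moved by under 0.1 (log2) under every alternative except UMIs per cell.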

Additional observations from a re-analysis of the deposited data

How the results depend on the processing

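The comparison rests on 456 and 454 cells of 1 sort, so it has no replicate check, and depth differs between the groups it compares. Of the values for the medians of lists with at least 3 measured genes and for the named genes under the 21 alternatives, 598 list and 598 gene values stayed close (within 0.1 on the log2 scale for lists, within the counting interval for genes), 254 and 260 moved, and 9 medians past 1.5-fold and 3 values of called genes turned. In the window of like size the median had the opposite sign in 12 of 28 lists outside the cycle, whatever its size. Those window medians are over the genes measured across the sort, and over the genes measured again in the window the class I median was 0.42 and the Myc-linked median -0.32. The window of 16000 to 24000 UMIs, and the depth weights without the granulocyte class, were chosen after seeing the data. Counts are given as all genes higher, all genes lower, then higher and lower outside the cycle, against 377, 206, 182 and 197. Thinning to 3000 UMIs gave 605, 452, 396 and 442. Low-share cells weighted to the depth of mitotic cells gave 646, 312, 457 and 284, a weight that rests on 45 low-share cells in the upper 8 depth bins. Only 100 of the 182 higher and 62 of the 197 lower genes were called again under these weights. UMIs per cell gave 4637, 12, 4335 and 11. A fold of 2 gave 231, 44, 62 and 39. With no minimum of cells the counts were 696, 909, 438 and 894, and with at least 50 CPM 215, 61, 78 and 54. Against all cells under 0.2% they were 251, 115, 90 and 93. Against low-share cells at or below the S phase median they were 656, 470, 415 and 462. Without the granulocyte class and weighted to depth they were 692, 329, 502 and 300, and 99 of the 182 and 69 of the 197 genes were called again. Within 16000 to 24000 UMIs 355 genes were higher outside the cycle. There 129 of the 182 higher and 74 of the 197 lower genes were called again by the full size rule.

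The granulocyte and monocyte median, 1.85, turned to -0.97 with depth weights, -0.48 without the 5% of cells with most UMIs, -0.49 without the granulocyte class, -0.24 against all cells under 0.2%, -0.87 without the class and weighted, and -0.21 in the UMI window. The genes measured differ between these settings, with 14 in the full comparison, 5 without the class and 4 in the window. Over 9 of the markers measured across the sort the window median was -0.09. The later thymocyte median turned to 0.16 with depth weights and 0.15 per cell, and the macrophage median to 0.47 in the window. The median of the thymic epithelial and stromal list, which rests on 2 measured genes and was not counted above, was -0.74 in the full comparison and 0.083 per cell. With depth weights Btg1 turned to 0.003 and Ccr9 to 0.78, and Ccr9 also to 0.78 with those weights and without the granulocyte class. The cause of these turns was not tested. TMM and DESeq2 factors gave 212 and 213 higher and 163 and 163 lower genes outside the cycle, and the split by 10 other mitotic genes 163 and 185, of which 151 and 163 were shared. No paired analysis was possible because the groups are cells of 1 library with no replicate numbers.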
